A study of Felis catus with 8 samples.

Results

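Glycolysis and its exits to lactate and acetyl-CoA were followed through 10 genes in cat liver: the regulators PFKFB1, PFKFB2 and PFKFB3, the glycolytic enzymes PFKL, ALDOA, PGK1, ENO1 and PKLR, lactate dehydrogenase LDHA and pyruvate dehydrogenase PDHA1. They were taken by gene symbol from the annotation of the array. Only probe sets annotated to exactly 1 gene were used, which gave 156 probe sets for the 10 genes. Of these, 102 passed the filter on dim signals, and all 10 genes were among the 17910 tested. A probe set is a group of short probes on the array that together read 1 stretch of a transcript, and a gene value is the mean of its kept probe sets on the log2 intensity scale.

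Glycolysis splits glucose and fructose carbon into pyruvate. Pyruvate is then reduced to lactate or enters mitochondria through the pyruvate dehydrogenase complex. The PFKFB enzymes make and remove fructose 2,6-bisphosphate, the signal that switches phosphofructokinase on and gluconeogenesis off. The liver uses this switch to move between burning and making glucose after meals and in fasting, and most fructose enters the liver pathway below phosphofructokinase.

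The livers came from male domestic cats aged 9 months. Control cats ate a standard chow, and MSG cats the same chow with 1.125% monosodium glutamate, a flavour enhancer. Trans-fat/HFCS cats ate a diet with 8.6% trans fat and 24% high-fructose corn syrup. Combined cats ate trans fat, syrup and glutamate at these same shares. Mothers were on the diet before mating and through nursing, and sons stayed on it after weaning, so the exposure began before birth and is not an adult treatment alone. Each diet had 2 arrays, numbered in the labels as different cats. The labels also say that RNA came from 4 to 5 livers per diet, and do not state pooling or litters. The n of 2, the errors and the p-values therefore measure the spread between these arrays only.

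The cat RNA was read on human arrays, so a level can be compared between diets but not between genes or probe sets. The median intensity was 5.25 to 5.28 on every array, and arrays of the same diet correlated across gene values at 0.946 to 0.968. The hepatocyte list of 10 markers had 9 measured genes, each at 5.59 or higher on the log2 scale on every array. Their summed intensity was 3660 to 4300 per array. None of the 9 passed the test in the trans-fat/HFCS main effect, where 7.66% of all genes did. In that effect 2 of the 9 had higher values and 7 lower, with a median of -0.17, against 0.02 over all genes. Skeletal muscle markers stood apart. The summed intensity of 13 markers was 785 and 797 on the trans-fat/HFCS arrays and 200 to 229 on the other 6. The values that rest on these arrays are given below with and without them. In whole tissue, fewer cells of a type and less RNA per cell cannot be told apart.

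With trans fat and syrup in the diet, PFKFB1 and PFKFB3 fell and ALDOA rose, while the other 7 genes did not pass the test. This comparison, the trans-fat/HFCS main effect, averages the difference of the trans-fat/HFCS diet from control and that of the combined diet from MSG, so it sets 4 arrays against 4. The 3 called genes of 10 compare with 7.66% of all genes called in the same comparison, 4.44% higher and 3.22% lower. Their call means an adjusted p under 0.05 in limma after Benjamini-Hochberg adjustment over 17910 genes. The median change of the 10 genes was 0.03 on the log2 scale, against 0.02 over all genes.

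**Figure D1:**
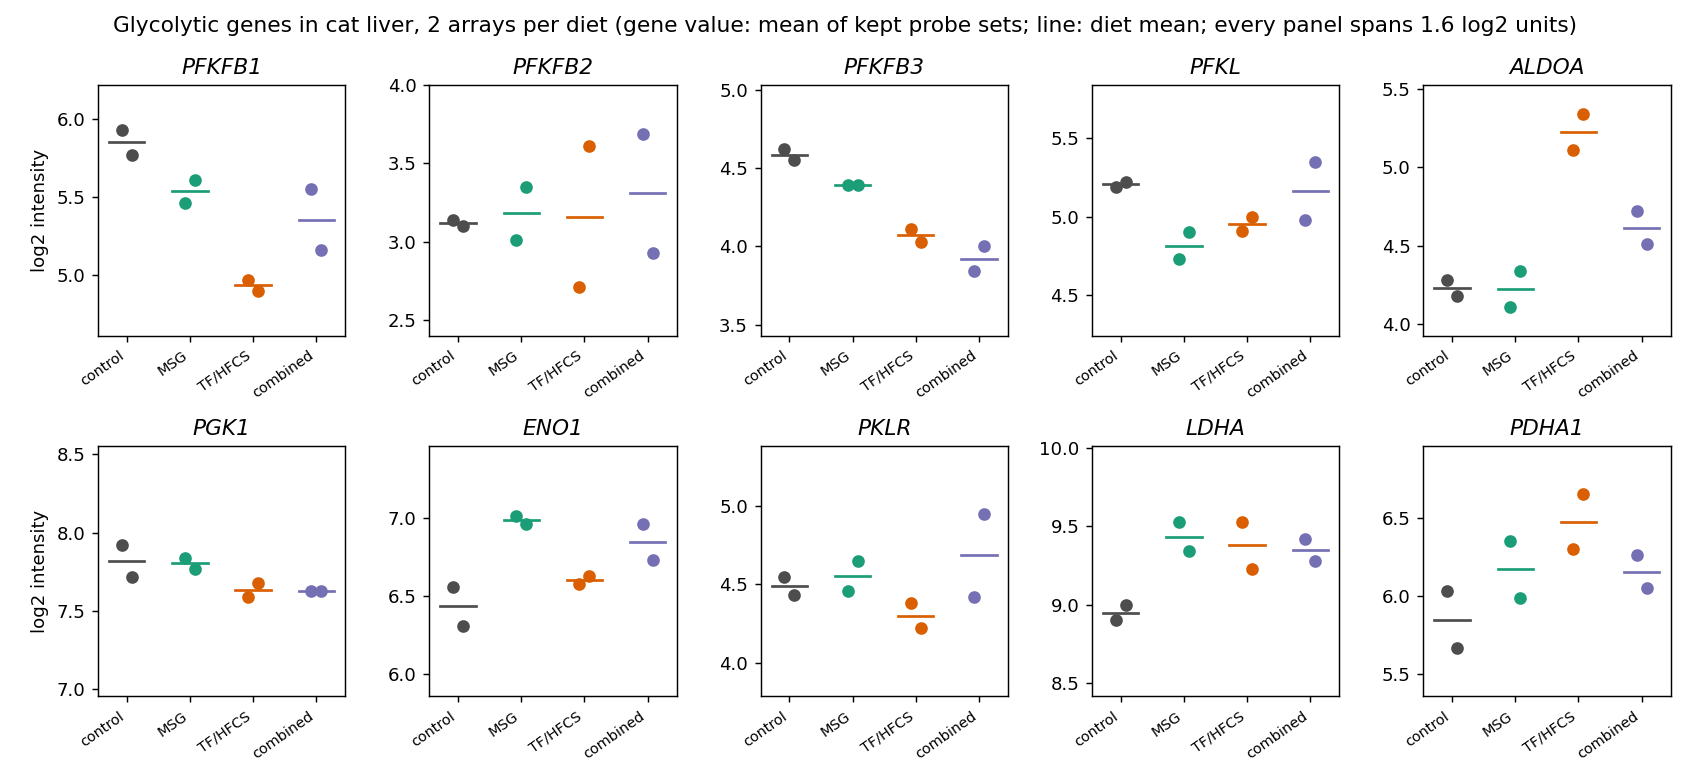
Log2 intensity of each of the 10 genes (vertical axis, a window of the same width in every panel) on the 8 arrays, grouped by diet (horizontal axis; TF/HFCS is the trans-fat/HFCS diet); points are arrays and lines are diet means. PFKFB3 was at 4.11 or lower on the 4 arrays with trans fat and at 4.39 or higher on the others, and ALDOA was at 4.51 or higher against 4.34 or lower. Over all genes 15.0% split this way in either direction.

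PFKFB1 encodes the isoform of the bifunctional enzyme typical of liver and muscle, whose liver form is switched by glucagon and insulin. Its log2 intensity was 5.93 and 5.77 on the control arrays, 5.46 and 5.61 on MSG, 4.97 and 4.90 on trans-fat/HFCS and 5.55 and 5.16 on the combined diet. The trans-fat/HFCS arrays were the lowest, and the first combined array lay within the MSG range, so the arrays with and without trans fat overlapped. The main effect was -0.55 ± 0.13 (SE; 1.46-fold lower; limma adjusted p = 0.04), with a 95% interval of -0.84 to -0.25.

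Set against control alone, PFKFB1 fell by 0.91 on the trans-fat/HFCS diet (SE 0.19; 1.88-fold; limma adjusted p = 0.04), 1 of 2 members called where 2.48% of all genes were. On the combined diet the difference from control was -0.49 (limma adjusted p = 0.23), and from the MSG diet -0.18 (adjusted p = 0.67). The interaction, which is the MSG difference on the trans-fat base minus that on chow, was 0.73 ± 0.26 (limma adjusted p = 0.45). None of the 10 genes passed in the interaction, where 0.151% of all genes did. An unadjusted p under 0.05 was found for 3 of them, PFKFB1, PFKL and ALDOA, and for 9.07% of all genes. The order of the diet means was control 5.85 ± 0.11 (SD, n = 2), MSG 5.53 ± 0.11, combined 5.36 ± 0.28 and trans-fat/HFCS 4.93 ± 0.05. The MSG and combined means lay within the spread of the combined arrays.

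Of the 11 kept probe sets of PFKFB1, 10 were lower with trans fat. Among these, 2 passed the test on single probe sets, with changes of -1.23 (limma adjusted p = 0.03) and -1.17 (adjusted p = 0.043). The first of them read 7.57 and 7.59 on control and 6.72 and 7.27 on MSG. It read 5.75 and 5.63 on trans-fat/HFCS and 6.51 and 6.34 on the combined diet. The brightest probe set changed less in the same direction, by -0.42 ± 0.16, and did not pass (limma adjusted p = 0.25). All 7 probe sets above an intensity of 13 were lower, with a median of -0.80. Past 1.5-fold with trans fat were also probe sets at -0.92, -0.80 and -0.73, not called. With MSG 3 probe sets were past 1.5-fold and not called: the one at -0.73 with trans fat was at -1.06, the one at -1.17 was at 0.67, and another was at 1.12.

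PFKFB2 encodes the isoform best known from heart, which insulin signalling activates. Its arrays read 3.14 and 3.10 on control, 3.01 and 3.35 on MSG, 2.71 and 3.61 on trans-fat/HFCS and 3.69 and 2.93 on the combined diet. The 2 trans-fat/HFCS arrays, and likewise the 2 combined arrays, lay further apart than any diet means did. The main effect of trans fat was 0.09 ± 0.23, with a 95% interval of -0.43 to 0.61 (limma adjusted p = 0.86). Its signal was close to the filter: 7 of 20 probe sets were kept, and 1 of them was above an intensity of 13. The kept probe sets ranged from -1.23 to 1.01 in the main effect, with 3 lower and 4 higher and none called. Those past 1.5-fold were at -1.23, -0.82, 0.83 and 1.01 with trans fat, and 1 was at 0.69 with MSG.

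PFKFB3 encodes the inducible isoform, which favours making fructose 2,6-bisphosphate and so speeds glycolysis. It was at 4.62 and 4.55 on control, 4.39 on both MSG arrays, 4.11 and 4.03 on trans-fat/HFCS and 3.84 and 4.00 on the combined diet. All 4 arrays with trans fat lay below all 4 without, as they did, in either direction, for 15.0% of all genes. PFKFB3 fell by 0.49 in the main effect (SE 0.11; 1.41-fold; limma adjusted p = 0.032), with a 95% interval of -0.75 to -0.24.

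PFKFB3 was lower on both diets with trans fat, by sizes that did not pass singly. The difference from control was -0.52 ± 0.16 on the trans-fat/HFCS diet (limma adjusted p = 0.13) and -0.67 ± 0.16 on the combined diet (adjusted p = 0.091). The combined diet stood -0.47 from the MSG diet (limma adjusted p = 0.17). These comparisons share arrays. The interaction was 0.04, with a 95% interval of -0.46 to 0.55 (limma adjusted p = 0.97). Without the trans-fat/HFCS arrays, the combined diet differed from MSG by -0.47 with an adjusted p of 0.21 in limma.

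Among the 16 kept probe sets of PFKFB3, 10 were lower and 6 higher. The brighter ones leaned lower: 7 of the 8 above an intensity of 13 were lower, and the median of the 8 was -0.69. None passed singly, though 7 were lower by more than 1.5-fold, from -0.87 to -1.47. The brightest read 8.58 and 8.53 on control, 7.78 and 8.26 on MSG, 7.47 and 7.31 on trans-fat/HFCS and 7.43 and 7.44 on the combined diet. Its change was -0.87 ± 0.19 (limma adjusted p = 0.07).

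**Figure D2:**
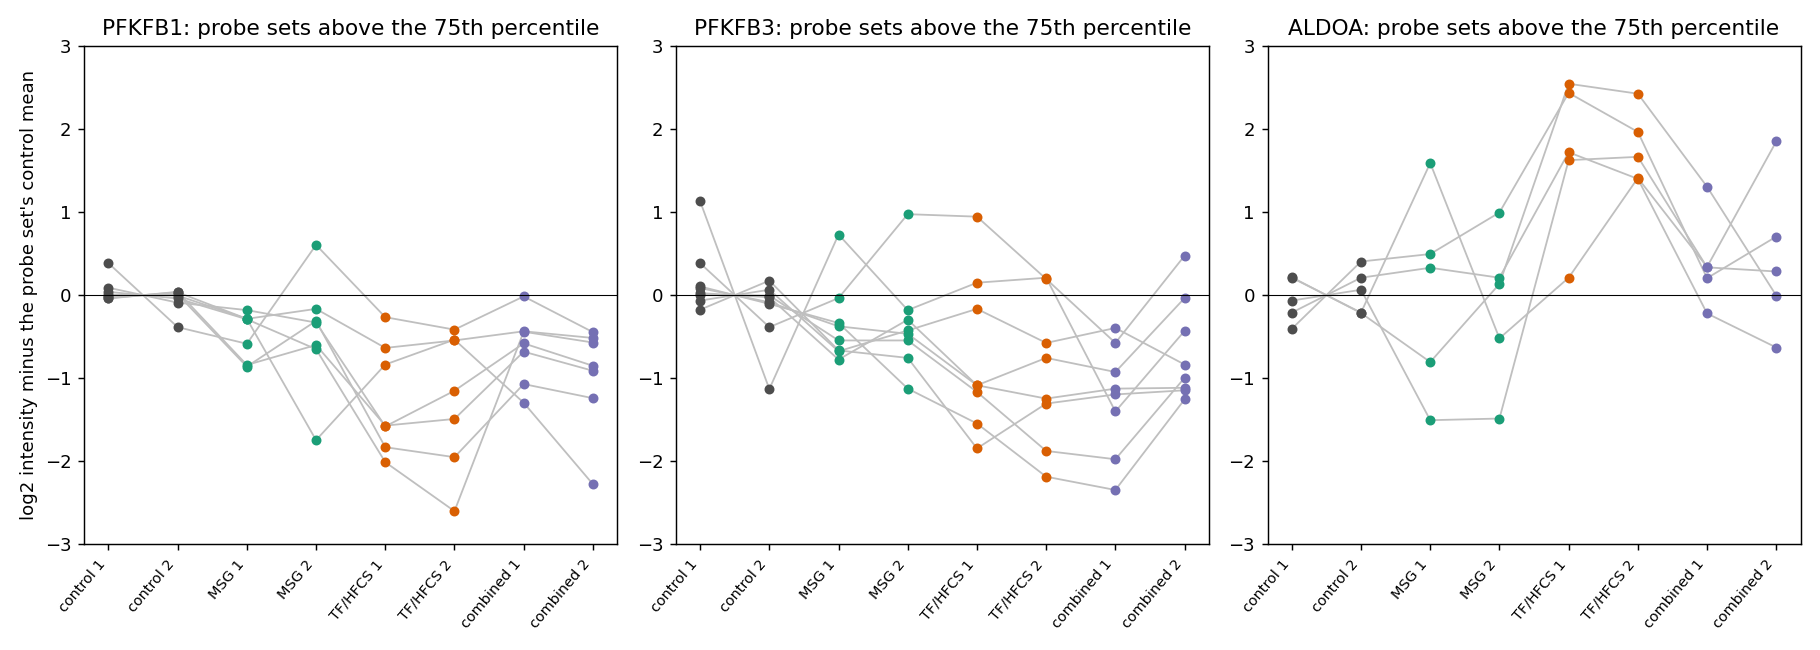
Log2 intensity of each probe set above an intensity of 13, minus the mean of its control arrays (vertical axis), on the 8 arrays (horizontal axis), for PFKFB1, PFKFB3 and ALDOA; each line is 1 probe set and colours are diets. The 7 probe sets of PFKFB1 lie below 0 on both trans-fat/HFCS arrays, and the 5 of ALDOA lie above 0 there. On the combined arrays most of the ALDOA probe sets lie near or above 0, and the brightest lies below 0.

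PFKL encodes the liver subunit of phosphofructokinase, the enzyme that fructose 2,6-bisphosphate switches on. It read 5.19 and 5.22 on control, 4.73 and 4.90 on MSG, 4.91 and 5.00 on trans-fat/HFCS and 4.98 and 5.35 on the combined diet. Control and the second combined array were the highest. The main effect of trans fat was 0.05, with a 95% interval of -0.24 to 0.34 (limma adjusted p = 0.86). MSG stood -0.39 ± 0.18 from control (limma adjusted p = 0.68), and the interaction was 0.60 ± 0.26 (adjusted p = 0.53). Its 12 kept probe sets of 25 ran from -1.19 to 1.14 in the trans-fat main effect, with none called, and the brightest was at 0.17. Past 1.5-fold were 4 with trans fat, at -1.19, -0.61, 0.95 and 1.14, and 1 with MSG, at -1.08.

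ALDOA encodes the aldolase typical of muscle, which splits fructose 1,6-bisphosphate. It had the smallest F-test p of the 10 genes. Its log2 intensity was 4.28 and 4.18 on control, 4.11 and 4.34 on MSG, 5.11 and 5.34 on trans-fat/HFCS and 4.72 and 4.51 on the combined diet. The 4 arrays with trans fat were above the other 4, a split that 15.0% of all genes showed in either direction, and those without MSG were the highest. ALDOA rose by 0.69 ± 0.13 in the main effect (1.61-fold; limma adjusted p = 0.016), with a 95% interval of 0.40 to 0.98.

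On the trans-fat/HFCS diet alone, ALDOA rose by 0.99 ± 0.18 over control (1.98-fold; limma adjusted p = 0.026). On the combined diet the difference from control was 0.38 ± 0.18 (limma adjusted p = 0.33), and from MSG 0.39 (adjusted p = 0.31). The combined diet stood -0.61 from the trans-fat/HFCS diet (limma adjusted p = 0.39), and the interaction was -0.60 (adjusted p = 0.53). None of the 10 genes passed in these pairs: 3 had an unadjusted limma p under 0.05 against control, 1 against MSG and 1 against trans-fat/HFCS, against 16.5%, 17.3% and 8.98% of all genes. After adjustment 1.16%, 1.66% and 0.179% of all genes passed. ALDOA was the 1 member of 10 that passed the F test for any difference among the 4 diets (limma adjusted p = 0.04), as 3.20% of all genes did.

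Of the 9 kept ALDOA probe sets, 7 were higher with trans fat, and all 5 above an intensity of 13 were, with a median of 0.95. Those past 1.5-fold were at 0.69, 0.95, 1.73 and 1.74 with trans fat, and at -1.41, -1.09, -0.86 and 0.92 with MSG. A single probe set passed, with a change of 1.73 ± 0.16 (limma adjusted p = 0.0067). It read 6.26 and 6.39 on control, 4.82 and 4.84 on MSG, 7.95 and 7.99 on trans-fat/HFCS and 6.66 and 6.61 on the combined diet. The same probe set was the only one of the members' 102 to pass in the MSG main effect, where it fell by 1.41 (limma adjusted p = 0.045; 0.163% of all kept probe sets called). The brightest probe set read 7.77 and 8.19 on control, 8.31 and 8.19 on MSG, 9.70 and 9.38 on trans-fat/HFCS and 7.76 and 7.35 on the combined diet, so that only the trans-fat/HFCS arrays stood above the rest.

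Skeletal muscle markers moved with ALDOA on the trans-fat/HFCS arrays. ACTA1, the actin of skeletal muscle, was at 7.57 and 7.60 there and at 4.47 to 4.88 on the other 6 arrays. The median of the 13 markers stood 2.48 and 2.04 above the control mean there, and between -0.06 and 0.13 on the other 6 arrays. In the trans-fat/HFCS main effect 9 of the 13 passed the limma test as higher, where 4.44% of all genes did. In the MSG main effect 7 passed as lower, where 0.329% of all genes passed in either direction. The MSG diet against control called 0 of the 13, and the interaction 7 as lower, where 0.296% and 0.151% of all genes passed. The filter used the mean of all 8 arrays, so markers high only on the trans-fat/HFCS arrays could pass it through them. The markers that did not pass as higher included MB, the oxygen store of muscle fibres, and TNNI2, the fast-fibre troponin I. These 2 were the only ones with lower values in the trans-fat/HFCS main effect. The lowest marker on each of the other 6 arrays was at 2.20 to 2.31, below the log2 filter level of 2.43. Over the 8 arrays ALDOA correlated with 11 markers at Pearson's r of 0.788 to 0.917, with MB at -0.161 and with TNNI2 at -0.584. These arrays share diets, so the correlations are descriptions. On the combined arrays, where the marker median was 0.13 and -0.06, ALDOA was at 4.72 and 4.51, above the control and MSG arrays. Single markers differed there: TNNT3, a troponin T of fast fibres, was at 5.04 and 5.17 on the combined arrays against 4.03 to 4.43 on control and MSG, and ACTA1 at 4.47 and 4.64. Like ALDOA, 2 of the 13 markers, MYH1 and TNNT3, were higher on all 4 arrays with trans fat than on the others. Over all genes 15.0% split this way in either direction. MYH1 was at 2.41 and 2.53 on the combined arrays and at 2.20 to 2.31 on control and MSG, near the log2 filter level of 2.43. The part of the muscle markers in the ALDOA values was not tested.

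**Figure D3:**
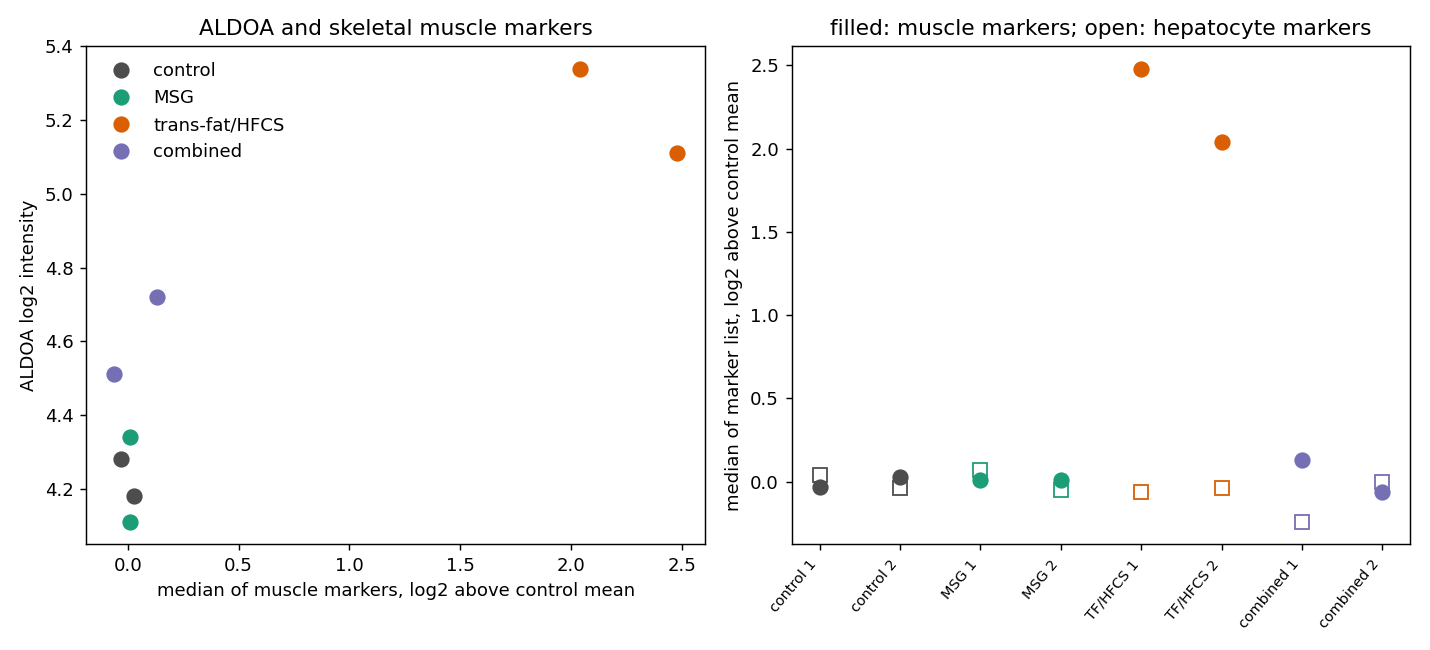
Left, ALDOA log2 intensity (vertical axis) against the median of the 13 skeletal muscle markers, as log2 above the control mean (horizontal axis), on the 8 arrays, coloured by diet; right, the medians of the muscle markers (filled circles) and the 9 hepatocyte markers (open squares) on each array. The trans-fat/HFCS arrays stand at 2.48 and 2.04 for muscle markers and at -0.06 and -0.04 for hepatocyte markers.

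The genes most like ALDOA over the 8 arrays, among tested genes with more than 1 kept probe set, were TNFSF11 (Pearson's r 0.986), SRCRB4D (0.984) and ADAMTSL5 (0.978). These were picked from all genes for that likeness. TNFSF11 read 3.69 to 3.80 on the control and MSG arrays, 4.32 and 4.45 on trans-fat/HFCS and 4.09 and 3.99 on the combined diet.

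Below aldolase, PGK1 encodes phosphoglycerate kinase, the first enzyme of glycolysis to make ATP. It was at 7.92 and 7.72 on control, 7.84 and 7.77 on MSG, 7.59 and 7.68 on trans-fat/HFCS and 7.63 on both combined arrays. The arrays with trans fat were all lower than the others, a split that 15.0% of all genes showed in either direction. The gap was small: the main effect was -0.18, with a 95% interval of -0.44 to 0.08 (limma adjusted p = 0.37). The 10 probe sets above an intensity of 13 were divided evenly, 5 lower and 5 higher, and the brightest was at -0.03. Past 1.5-fold were 2 dimmer ones, at -0.97 and -0.78, not called.

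ENO1 encodes the common form of enolase. It read 6.56 and 6.31 on control, 7.01 and 6.96 on MSG, 6.58 and 6.63 on trans-fat/HFCS and 6.96 and 6.73 on the combined diet. All 4 arrays with MSG were above all 4 without, and the arrays split this way, in either direction, for 2.68% of all genes. The MSG main effect was 0.40 ± 0.12, with a 95% interval of 0.12 to 0.67, and did not pass after adjustment (limma adjusted p = 0.43). In that comparison 0 of the 10 genes and 0.329% of all genes passed in limma, while 2, ENO1 and ALDOA, and 7.91% of all genes had an unadjusted p under 0.05. A dim probe set of ENO1 had the largest difference. It read 2.01 and 2.30 on control, 3.77 and 5.46 on MSG, 2.71 and 2.47 on trans-fat/HFCS and 4.76 and 3.09 on the combined diet, a main effect of 1.90 (limma adjusted p = 0.48), while the brightest was at 0.20. The other kept ENO1 probe sets ran from -0.16 to 0.20, so the MSG main effect of the gene came largely from the dim one. Both control readings of the dim one lay below the log2 filter level of 2.43. Averaged over the other kept probe sets, the second MSG array lay below the first control array. Without the dim one the arrays therefore did not split by MSG. The trans-fat main effect of ENO1 was 0.02, with a 95% interval of -0.26 to 0.29.

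PKLR encodes the pyruvate kinase of liver and red cells, which makes pyruvate and which feeding with sugar is known to raise. Its arrays read 4.55 and 4.43 on control, 4.46 and 4.65 on MSG, 4.38 and 4.22 on trans-fat/HFCS and 4.42 and 4.95 on the combined diet. The lowest arrays were those of trans-fat/HFCS, and the combined arrays spanned nearly the whole range. The trans-fat main effect was -0.03, with a 95% interval of -0.36 to 0.30 (limma adjusted p = 0.93), and the MSG main effect 0.22, from -0.11 to 0.56 (adjusted p = 0.79). In the MSG main effect 6 of its 9 kept probe sets were higher, up to 0.63, and none passed. A dim one was past 1.5-fold with trans fat, at 0.93 (limma adjusted p = 0.29).

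At the branch to lactate, LDHA encodes the subunit of lactate dehydrogenase that turns pyruvate into lactate. It was at 8.90 and 9.00 on control, 9.53 and 9.34 on MSG, 9.53 and 9.23 on trans-fat/HFCS and 9.42 and 9.28 on the combined diet. Both control arrays were below all 6 others, as 11.7% of all genes split in either direction, and the 3 test diets overlapped. None of the 3 differences from control passed: 0.48 on MSG (limma adjusted p = 0.55), 0.43 on trans-fat/HFCS (adjusted p = 0.24) and 0.40 on the combined diet (adjusted p = 0.31), with a shared SE of 0.18. These differences share the control arrays. On the MSG diet against control 0 of the 10 genes and 0.296% of all genes passed in limma, while 2, LDHA and ENO1, and 7.64% of all genes had an unadjusted p under 0.05. The main effects were 0.17, with an interval of -0.11 to 0.46, for trans fat and 0.23, from -0.06 to 0.51, for MSG.

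Of the 9 kept LDHA probe sets, 8 were higher with MSG, by up to 0.42. The dimmest of the 9 was lower with MSG, at -0.28, and had the largest change with trans fat, 1.15 ± 0.47 (limma adjusted p = 0.28). It read 3.43 and 2.86 on control, 3.74 and 3.63 on MSG, 5.95 and 4.28 on trans-fat/HFCS and 4.71 and 3.32 on the combined diet. Without it the other 8 averaged 0.05.

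At the branch to acetyl-CoA, PDHA1 encodes the catalytic alpha subunit of pyruvate dehydrogenase. It read 6.03 and 5.67 on control, 6.35 and 5.99 on MSG, 6.30 and 6.65 on trans-fat/HFCS and 6.26 and 6.05 on the combined diet. The highest array was the second of trans-fat/HFCS, and the diets overlapped. The main effect was 0.31, with a 95% interval of -0.04 to 0.65 (limma adjusted p = 0.26), and the difference of trans-fat/HFCS from control was 0.63 ± 0.22 (adjusted p = 0.17).

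The trans-fat main effect of PDHA1 came largely from 1 probe set. It read 3.52 and 2.89 on control, 3.39 and 3.77 on MSG, 6.59 and 6.08 on trans-fat/HFCS and 5.78 and 5.25 on the combined diet. It rose by 2.53 ± 0.26 (5.79-fold; limma adjusted p = 0.0081). The other 9 probe sets of PDHA1 ran from -0.22 to 0.29 in the main effect, with a mean of 0.06. In all, 4 of the 102 kept probe sets passed in the trans-fat main effect, 2 of PFKFB1, 1 of ALDOA and 1 of PDHA1, where 2.71% of all kept probe sets did. In the F test 2 passed, 1 each of ALDOA and PDHA1, against 1.07%. A human probe set can also change where cats differ in sequence under it or use another exon, which was not tested.

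**Figure D4:**
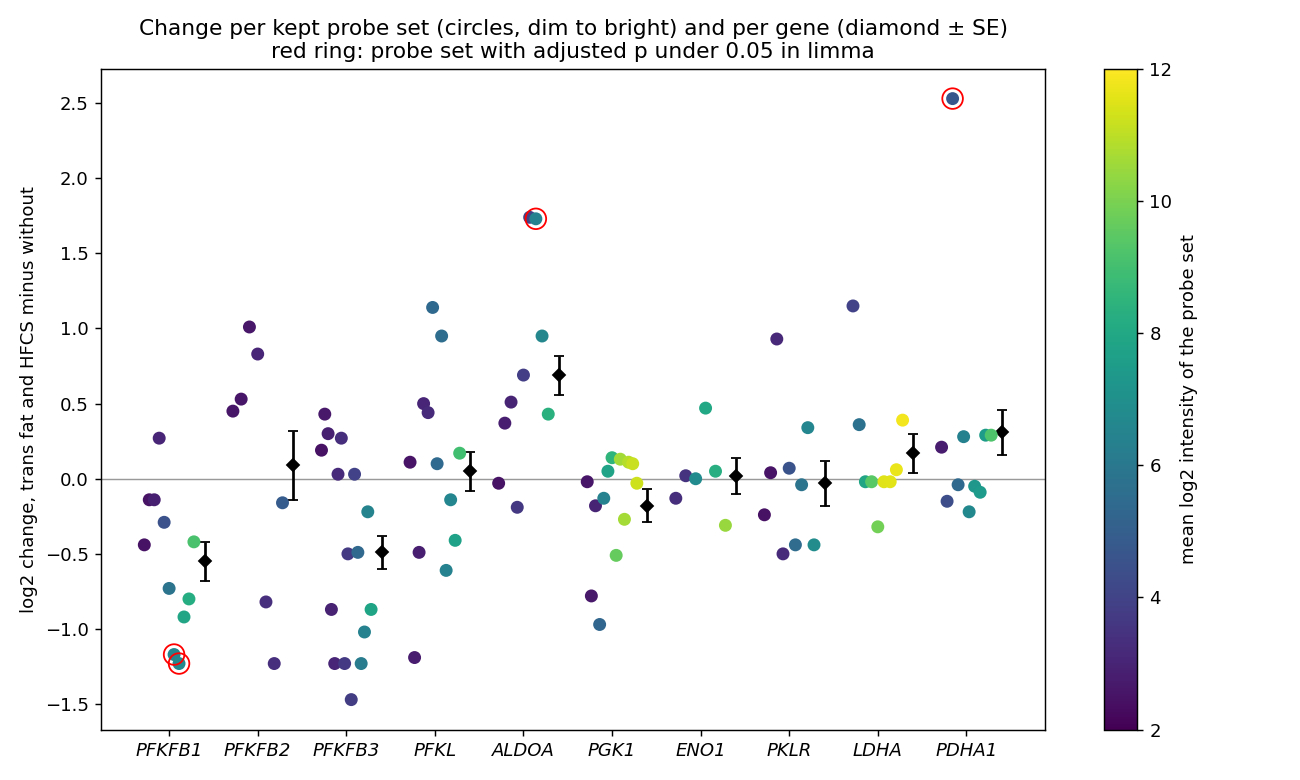
Log2 change with trans fat and syrup (vertical axis) of every kept probe set of the 10 genes (circles, ordered and coloured from dim to bright within a gene) and of the gene (diamond with SE); red rings mark probe sets with an adjusted p under 0.05 in limma. The ringed PDHA1 probe set at 2.53 stands alone above 9 between -0.22 and 0.29, while the brighter PFKFB1 probe sets lie below 0.

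The rest of the pathway was read from a list with 51 measured genes. In the trans-fat main effect 0 of the 51 passed as higher and 2 as lower, where 4.44% and 3.22% of all genes did. The values of 27 were higher and of 24 lower, with a median of 0.01, and 11 of the 51 had an unadjusted limma p under 0.05, against 24.5% of all genes. In the MSG main effect none passed in limma (smallest adjusted p = 0.082), and 7 of 51 had an unadjusted p under 0.05, against 7.91% of all genes. ALDOC, the aldolase best known from brain, read 6.34 and 6.10 on control, 5.65 and 5.48 on MSG, 5.30 and 5.46 on trans-fat/HFCS and 5.21 and 5.20 on the combined diet. It fell by 0.60 in the main effect (SE 0.12; limma adjusted p = 0.022), opposite in direction to ALDOA. It also fell against control by 0.84 on trans-fat/HFCS (adjusted p = 0.04) and by 1.01 on the combined diet (adjusted p = 0.034). Its brightest probe set was at -0.09, and without the largest the other 5 averaged -0.39.

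PGAM1, a phosphoglycerate mutase, fell by 1.03 with trans fat (SE 0.25; 2.04-fold; limma adjusted p = 0.041). It read 4.49 and 4.76 on control, 5.01 and 5.40 on MSG, 3.28 and 4.35 on trans-fat/HFCS and 4.31 and 3.61 on the combined diet. Of its 4 probe sets 2 held identical values, so the gene value counts 1 reading more than once. MYC, a transcription factor known to drive glycolytic genes, passed the F test (limma adjusted p = 0.038). It read 4.22 and 4.23 on control, 5.24 and 5.50 on MSG, 4.42 and 4.53 on trans-fat/HFCS and 4.80 and 4.44 on the combined diet. Both MSG arrays were the highest, 1.15 above control (adjusted p = 0.053).

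In the other groups of the list no gene passed any test. Among 8 genes of hexose uptake, SLC2A1, the glucose carrier GLUT1, had the smallest F-test p, with an MSG main effect of -0.60 ± 0.12 (limma adjusted p = 0.12). Among 8 genes of lactate handling it was SLC16A1, the lactate carrier MCT1, with an MSG main effect of 0.64 ± 0.12 (limma adjusted p = 0.082). It read 4.89 and 4.68 on control, 5.39 and 5.48 on MSG, 4.70 and 4.56 on trans-fat/HFCS and 5.33 and 5.19 on the combined diet, so all 4 arrays with MSG were above the others, a split that 2.68% of all genes showed in either direction. Among 14 genes of pyruvate entry and the dehydrogenase complex it was PC, pyruvate carboxylase, at 0.65 above control on trans-fat/HFCS (limma adjusted p = 0.085).

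**Figure D5:**
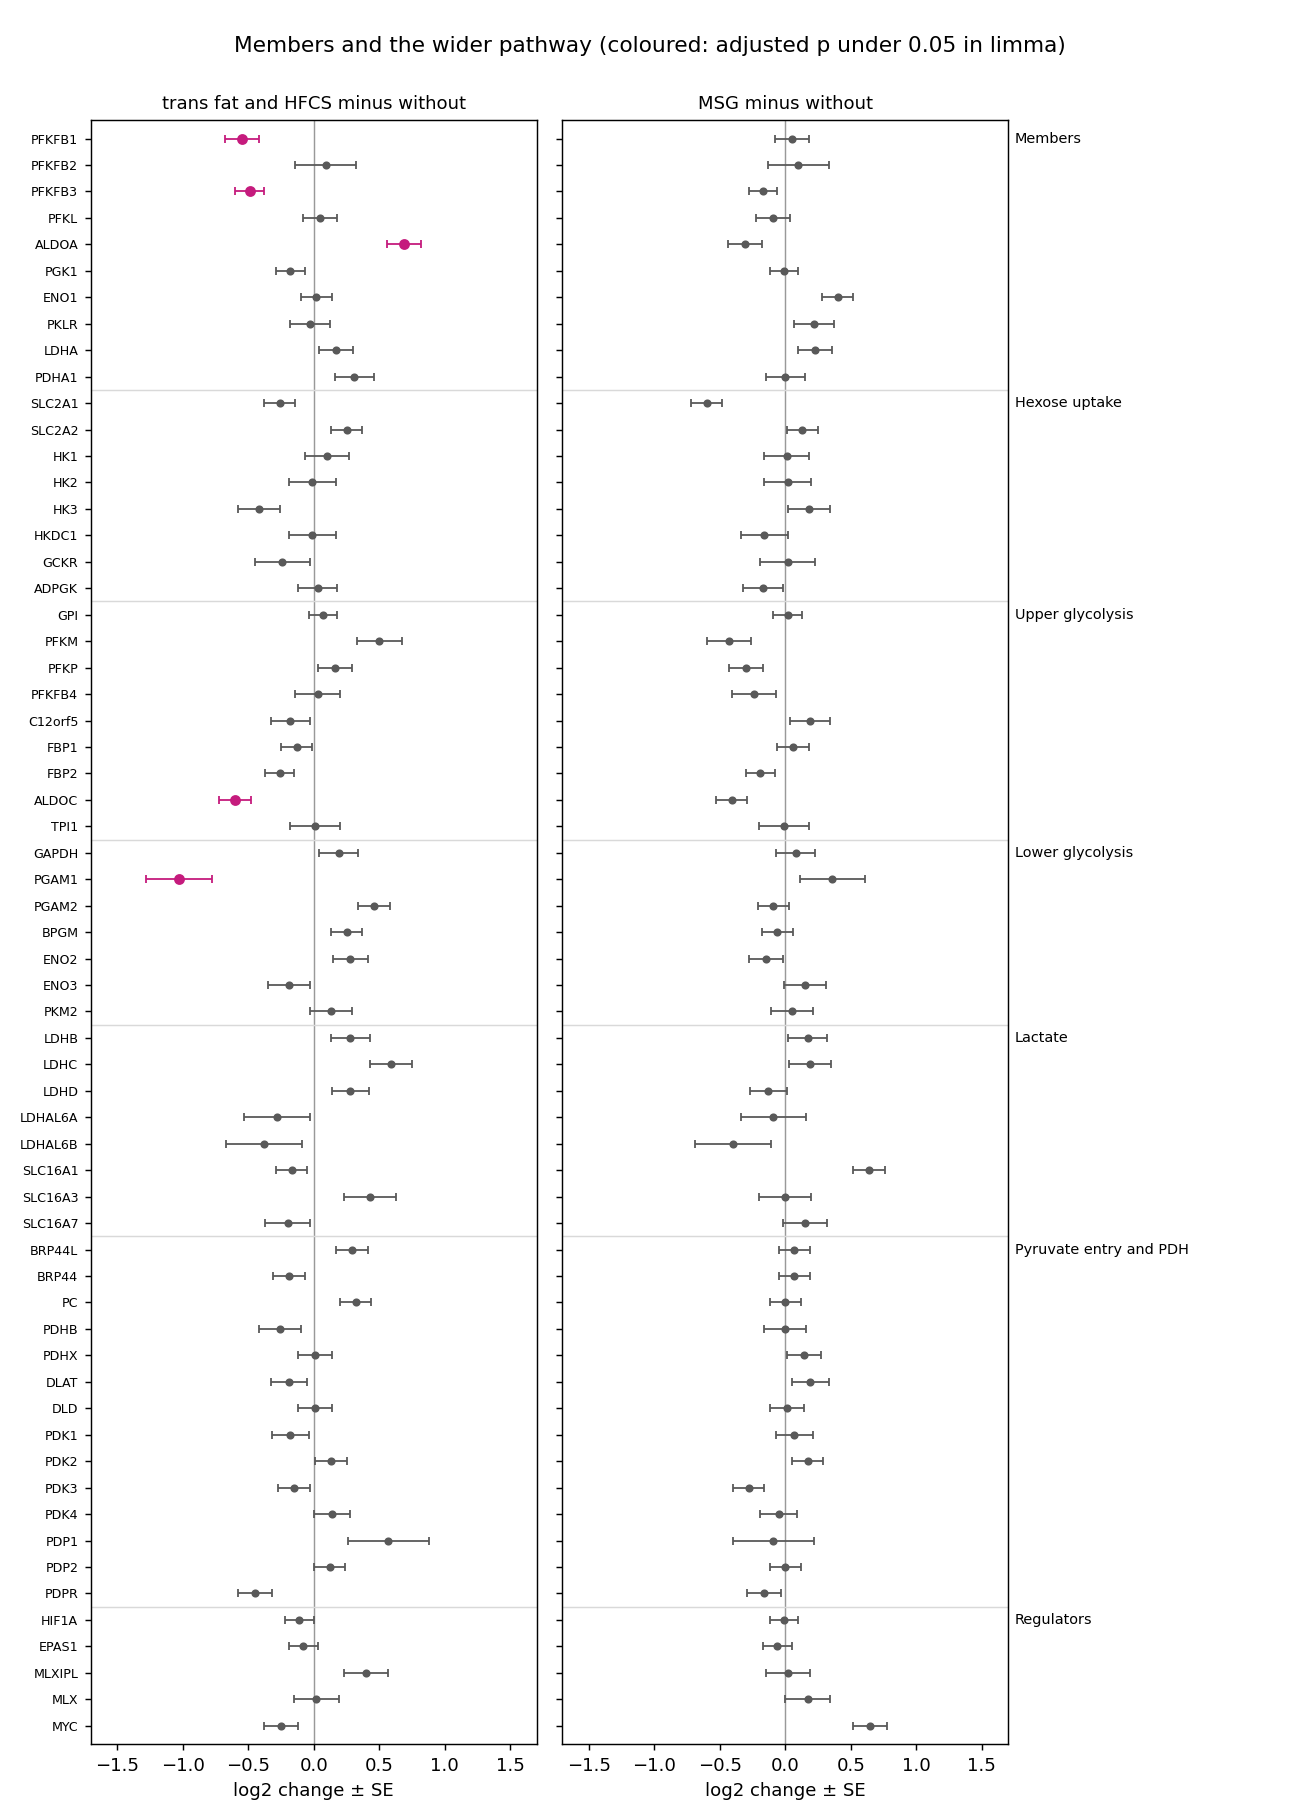
Log2 change ± SE (horizontal axes) of the 10 genes and the 51 measured genes of the wider pathway list, by group, with trans fat and syrup (left) and with MSG (right); coloured points have an adjusted p under 0.05 in limma. PFKFB1, PFKFB3, ALDOC and PGAM1 are coloured on the lower side and ALDOA on the higher side at left, and no gene is coloured at right.

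Several of these calls were lost when arrays were left out or the gene summary was changed. Without the trans-fat/HFCS diet, the combined diet against MSG called none of the 10 genes in limma: PFKFB1 was at -0.18 (adjusted p = 0.69), PFKFB3 at -0.47 (adjusted p = 0.21) and ALDOA at 0.39 (adjusted p = 0.32). In the same comparison ALDOC was at -0.36 (limma adjusted p = 0.35) and PGAM1 at -1.25 (adjusted p = 0.069). Leaving out 1 array at a time kept every direction of the 3 genes. ALDOA lost its call without control 1, control 2, MSG 1 or trans-fat/HFCS 2, PFKFB1 without any array but combined 1, and PFKFB3 without any array but combined 2. Their limma adjusted p rose to at most 0.066, 0.14 and 0.12 in that order. ALDOC ran from -0.66 to -0.54 and lost its call without control 1, control 2, MSG 1, trans-fat/HFCS 1 or combined 1 (adjusted p up to 0.089). PGAM1 ran from -1.30 to -0.76 and lost its call without any array but trans-fat/HFCS 2 or combined 1 (adjusted p up to 0.13). With the brightest probe set in place of the mean, PFKFB3 kept its call at -0.87 (limma adjusted p = 0.015), while ALDOA was at 0.43 (adjusted p = 0.17) and PFKFB1 at -0.42 (adjusted p = 0.065).

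Some markers of other liver cells passed in the trans-fat/HFCS main effect, where 4.44% of all genes passed as higher and 3.22% as lower. None of the erythroid, lymphocyte, endothelium or cholangiocyte markers did. Among 8 macrophage markers CD68 rose (0.78, limma adjusted p = 0.015), among 6 stellate markers PDGFRB fell (-0.60, adjusted p = 0.028), and among 4 measured neutrophil markers S100A12 fell (-1.81, adjusted p = 0.0059). The summed intensity of the macrophage list was 244 to 281 on control and MSG and 274 to 328 on the 4 arrays with trans fat, and that of the neutrophil list 55.2 to 79.7 and 37.8 to 52.5. That of the stellate list was 106 and 109 on the combined arrays and 144 to 155 on the other 6. All 6 stellate markers had lower values on the combined diet than on each of the other 3, and none of these differences passed (smallest limma adjusted p = 0.092). The part of these cells in the values of the 10 genes was not tested.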

How the data were processed

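Cat liver RNA was measured on 8 human whole-transcript arrays. The deposited values are normalized intensities, not log transformed. GCRMA, Partek and the build hg19 appear, per the submitters' processing notes, with no version or role. Other steps are not given in the sources used here. Cat RNA on human probes can lower a signal where sequences differ. Here the values were log2 transformed, and the 128550 probe sets whose mean log2 exceeded the median of all 257101 (log2 2.43, intensity 5.38) were kept. Kept probe sets with 1 gene in the array's annotation, 111624 in number, were averaged per gene. All 10 gene symbols were found in a table of cat genes, used for names only; no sequences or coordinates are given.

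A 4-diet model was fitted to all 8 arrays and 17910 genes with lmFit and eBayes of limma 3.58.1 under R 4.3.3 (two-sided tests, Benjamini-Hochberg, threshold 0.05), and again to the kept probe sets. The pooled spread had 4 residual degrees of freedom, moderated with 5.01 prior ones. The number of arrays limits the precision. The steps were tested on simulated data. Same-numbered arrays did not deviate together (correlations -0.056 to 0.043), so the replicate number was no block.

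The 10 genes, the lists and the tests were chosen with earlier results of these data known. Named beside the 10 genes were, in each pathway group, genes past the threshold or else the one with the smallest F-test p, and the 3 genes most like the member with the smallest F-test p. Probe sets were named singly past 1.5-fold in a main effect or when called. Alternatives were the filter, the gene summary, quantile normalization, an offset of 16, a mean-variance trend, the replicate block, leaving out each array, and, chosen after seeing the data, leaving out the trans-fat/HFCS diet and a centred median.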

Additional observations from a re-analysis of the deposited data

How the results depend on the processing

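Quantile normalization changed no count of called members. For the trans-fat/HFCS main effect, 3 members became 0 with the median of probe sets, 1 with the brightest probe set and 0 without the trans-fat/HFCS diet, and stayed between 0 and 2 when 1 array was left out. Against control, the 2 members called for the trans-fat/HFCS diet became 0 with the median and 1 with the centred median (0 to 2 without 1 array). The combined diet against control, with 0, gave 1 with the brightest probe set and 2 with an offset of 16, and the combined diet against the trans-fat/HFCS diet gave 1 with that offset. The F test, with 1 member, gave 2 above the 75th percentile, 0 with the median, 0 with the centred median, 3 with the offset and 2 with the trend (0 to 1 without 1 array). Of single probe sets, 4 called with trans fat became 9 above the 75th percentile, 10 with the offset, 10 with the trend and 0 without the trans-fat/HFCS diet (2 to 3 without 1 array). In the F test 2 became 5, 6 and 6 under the first 3 of these (0 to 1), and the 1 called with MSG became 0 in each leave-one-out fit. All genes called in the trans-fat/HFCS main effect numbered 1372, and 595 with the median, 729 with the centred median, 2182 with the brightest probe set, 2434 with the offset and 233 without the trans-fat/HFCS diet. The causes were not tested.

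The numbers do not pair the arrays. With the replicate block 1 member, ALDOA (limma adjusted p = 0.031), was called in the trans-fat/HFCS main effect, with PFKFB1 at an adjusted p of 0.056 and PFKFB3 at 0.054. The block gave 0 on that diet against control, 0 in the F test, 2 probe sets with trans fat, 0 with MSG and 0 in the F test of probe sets.

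The 3 called members kept their direction under every alternative run. PFKFB1 ran from -0.64 to -0.45, PFKFB3 from -0.53 to -0.45 and ALDOA from 0.63 to 0.75 without 1 array. With the median of probe sets they were at -1.28, -0.41 and 0.84, none called.

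Some uncalled differences turned sign, including PFKFB1 with MSG, from 0.05, and the interactions of PFKL and ALDOA, from 0.60 and -0.60. Above the 75th percentile, PFKFB1 with MSG was at -0.02, PFKFB2 at -0.16 with trans fat, -0.27 with MSG and -0.12 in the interaction, and PGK1 with MSG at 0.02. With the brightest probe set, PFKFB1 with MSG was at -0.06, PFKFB2 at -0.16, -0.27 and -0.12 as before, PFKL at 0.05 with MSG and -0.05 in the interaction, PGK1 with MSG at 0.05 and ENO1 with trans fat at -0.31. With the median, PFKFB1 with MSG was at -0.51, the interactions of PFKFB2, PFKFB3 and ALDOA at -0.26, -0.40 and 0.09, and PGK1, PKLR and LDHA with trans fat at 0.14, 0.07 and -0.32. With the centred median, PFKFB1 with MSG was at -0.07 and the interaction of PFKFB2 at -0.12, and with no filter PKLR with trans fat was at 0.02. Without the trans-fat/HFCS diet, ENO1, PKLR, LDHA and PDHA1 were at -0.14, 0.13, -0.08 and -0.02. Without 1 array, PFKFB2 ran from -0.14 to 0.31 with trans fat, -0.12 to 0.33 with MSG and -0.36 to 0.54 in the interaction. PFKL ran from -0.04 to 0.14, ENO1 from -0.04 to 0.08 and PKLR from -0.16 to 0.10 with trans fat, PFKFB1 from -0.05 to 0.15 and PGK1 from -0.06 to 0.04 with MSG, and PFKFB3 from -0.04 to 0.12 in the interaction.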
